A study of Mus musculus with 4 samples.

Results

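The proteasome subunit genes were followed through skeletal muscle mRNA of mice with 4 genotypes, each measured on 1 array. The members were the genes whose array name begins with Psma, Psmb, Psmc, Psmd, Psme, Psmf or Psmg and a number, leaving out Psmb8, Psmb9 and Psmb10 of the immunoproteasome. That rule matched 41 genes. Of these, 39 were proteasome genes with a probe well above background on all 4 arrays, among 14931 genes measured in the same way. They comprised 14 core particle genes (7 of the alpha ring and 7 of the beta ring) and 25 others, namely 6 base ATPases, 14 genes with Psmd names (the non-ATPase class, of which Psmd5, Psmd9 and Psmd10 encode chaperones of base assembly rather than subunits), 4 activators and 1 inhibitor. Psmc3ip, which the rule matched by its letters, takes part in meiotic recombination and was kept apart, and the testis subunit Psma8 was well above background on the WT array alone. No gene carried a Psmg name on the arrays. By current RefSeq symbols the assembly chaperones Psmg1, Psmg2 and Psmg3 were present under older names, and they are given at the end.

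The proteasome is the cell's main machine for breaking down proteins tagged with ubiquitin. Its core particle stacks rings of alpha subunits, which gate the entry, around rings of beta subunits, 3 of which, the products of Psmb5, Psmb6 and Psmb7, cut proteins. The regulatory particle caps the core: its ATPases unfold the substrate, and its non-ATPase subunits bind and remove ubiquitin. Other caps, made by the Psme genes, open the core without the regulatory particle. In skeletal muscle this pathway supplies much of the protein breakdown of wasting, downstream of ubiquitin ligases such as Trim63 and Fbxo32.

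The 4 genotypes were ob/ob mice lacking TBP-2 (ob/ob TBP-2-/-), ob/ob mice, mice lacking TBP-2 on a lean background (TBP-2-/-) and WT mice. TBP-2 is the labels' name for thioredoxin-interacting protein, encoded by Txnip, and ob/ob mice lack functional leptin. All mice were 10 weeks old and had free access to food. Which muscle was used, how many mice gave each RNA, their sex and strain, and the extent of the Txnip deletion are not stated in the labels. Since no genotype was repeated, a difference between 2 genotypes cannot be set against the spread between mice, and "higher" and "lower" are said of these arrays only.

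A scaled signal is the background-subtracted signal divided by the 75th percentile of its array. It has no unit and cannot rank one gene against another, since probes differ in brightness. A log2 difference compares the scaled signals of 2 arrays. Its standard error (SE), from the error model of the scanner software, was 0.20 for the median member. Over all members and comparisons this SE ran only from 0.204 to 0.205, so 2 SE is nearly the same cut for every member. It is the error model's figure for spot error, and it leaves out the spread between mice. Between the spots of probes printed 10 times on the same array, the median SD was 0.0596 (WT) to 0.0689 (ob/ob TBP-2-/-) on the log2 scale. The median of all genes was −0.07 (log2) for TBP-2-/- minus WT and 0.03 for ob/ob TBP-2-/- minus ob/ob. It was −0.05 for ob/ob minus WT and 0.03 for ob/ob TBP-2-/- minus TBP-2-/-. "Relative" differences are those minus this median.

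As a check of the labels, Txnip had scaled signals of 0.63 on the ob/ob TBP-2-/- array, 42.8 on ob/ob, 2.85 on TBP-2-/- and 47.5 on WT. It was low on both arrays labelled TBP-2-/-. Leptin (Lep) mRNA, whose gene is mutated in ob/ob mice, had 2.19, 0.80, 0.36 and 0.13 in the same order. The muscle fibre markers were all measured, and their summed scaled signals were 9112, 8043, 7954 and 9115 on the ob/ob TBP-2-/-, ob/ob, TBP-2-/- and WT arrays. Markers of other tissues moved between the arrays. The sums of 8 tendon and fibroblast markers were 456, 302, 382 and 279 in the same order. Their median log2 difference was larger than these sums show, at 2.61 for ob/ob minus WT (6 of 8 above 0) and 2.57 for TBP-2-/- minus WT (8 of 8). In each of these comparisons 5 of 8 were 1.5-fold or more higher and 0 lower. The sums of 7 adipocyte markers were 257, 139.5, 326 and 215 in the same order of arrays. The adipocyte markers did not go one way: for ob/ob minus WT 4 of 7 were above 0 (median 0.46), from 2.62 for Lep to −3.39 for Cfd, whose bright probe, with that of Fabp4, carries much of the sum. Comp, a tendon and cartilage matrix gene, had scaled signals of 8.83, 5.95, 4.51 and 0.14 in that order, so the WT array stood far below the other 3. The 7 macrophage markers summed to 68.5, 57.9, 76.9 and 59.4, the 6 Schwann cell markers to 9.62, 5.57, 9.22 and 3.61, the 5 endothelial markers to 14.1, 14.5, 16 and 14.2, and the 2 measured of 4 T cell markers to 0.388, 0.309, 0.314 and 0.353. Of the macrophage markers 2 of 7 were above 0 for ob/ob minus WT and 0 of 7 for ob/ob TBP-2-/- minus TBP-2-/-. In bulk tissue fewer cells of a type and less RNA per cell cannot be told apart. The part of these other tissues in the results below was not tested.

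Promoters are shown for 5 genes on which the results below turn: Psme1 and Psme2, the members that were lowest on the ob/ob array relative to WT, Psmb8 of the immunoproteasome, which was low on the same array, and Psmb5 and Psmb6, catalytic members that carry an antioxidant response motif. Each is the 250 bases before a RefSeq transcription start on GRCm38.p6, read 5′ to 3′ on the gene's strand. Psme1 lies at chr14:55578244-55578493 on the plus strand, Psme2 at chr14:55591022-55591271 on the minus strand, Psmb8 at chr17:34197945-34198194 on the plus strand, Psmb5 at chr14:54617996-54618245 on the minus strand and Psmb6 at chr11:70525107-70525356 on the plus strand. Capitals mark matches, on either strand, to the interferon motifs TTCNNNGAA (gamma-activated site) and GAAA, NN, GAAA in a row (interferon-stimulated response element) or to the antioxidant response motif TGACNNNGC.
Psme1: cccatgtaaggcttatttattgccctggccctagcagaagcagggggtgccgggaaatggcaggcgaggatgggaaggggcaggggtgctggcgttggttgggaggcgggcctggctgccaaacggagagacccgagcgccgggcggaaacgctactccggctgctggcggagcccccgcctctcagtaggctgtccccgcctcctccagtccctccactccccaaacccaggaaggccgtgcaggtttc
Psme2: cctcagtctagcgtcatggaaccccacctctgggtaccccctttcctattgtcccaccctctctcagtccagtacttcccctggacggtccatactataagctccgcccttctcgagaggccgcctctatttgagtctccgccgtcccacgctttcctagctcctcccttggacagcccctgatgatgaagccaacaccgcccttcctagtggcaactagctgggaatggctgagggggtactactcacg
Psmb8: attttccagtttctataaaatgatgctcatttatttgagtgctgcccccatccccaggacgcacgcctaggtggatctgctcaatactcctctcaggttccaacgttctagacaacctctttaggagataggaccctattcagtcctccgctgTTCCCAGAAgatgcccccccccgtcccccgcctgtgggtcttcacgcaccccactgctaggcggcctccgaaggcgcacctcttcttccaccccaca
Psmb5: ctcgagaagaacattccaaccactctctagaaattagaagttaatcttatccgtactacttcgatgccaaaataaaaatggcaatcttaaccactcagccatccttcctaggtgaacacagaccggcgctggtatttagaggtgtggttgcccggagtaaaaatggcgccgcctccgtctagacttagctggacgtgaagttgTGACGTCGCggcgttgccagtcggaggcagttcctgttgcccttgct
Psmb6: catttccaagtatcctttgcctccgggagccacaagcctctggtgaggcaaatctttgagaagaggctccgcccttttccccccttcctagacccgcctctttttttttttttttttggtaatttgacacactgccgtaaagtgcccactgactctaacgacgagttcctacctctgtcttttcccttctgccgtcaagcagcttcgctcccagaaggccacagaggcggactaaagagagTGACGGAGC
Neither Psme1 nor Psme2 held a match to the 3 motifs in this window, also at the other Psme2 start (chr14:55591102-55591351), which says only that these letters are not there. The gamma-activated site was in the Psmb8 window and in 0 of the 33 members that had a promoter entry, against 8.13% of all genes. The antioxidant motif was in 5 of 33 members (Psmb5, Psmb6, Psmc6, Psmd9 and Psmd12), against 11.5% of all genes. The interferon-stimulated motif was in 3 of 33 (Psmb3, Psmd4 and Psmd9), against 3.46% of all genes, and a CCAAT box in 12 of 33, against 37.5%. A match is a description and not a site of binding.

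Most proteasome transcripts kept nearly the same scaled signal on all 4 arrays, with arrays scaled at the 75th percentile. The ratio of a member's highest to its lowest array had a median of 1.20, and it ran from 1.07 for Psmd13, a lid subunit, to 1.55 for Psme1. The highest array was less than 25% above the lowest for 27 of 39 members (69.2%), against 32.2% of all genes and 39.6% of the genes in the members' range of levels. A ratio of 1.5 or more was found for 2 of 39 members, Psme1 and Psme2. The share was 31.0% of all genes and 23.0% of the genes in the members' range of levels. The ob/ob TBP-2-/- array was the highest for 24 of 39 members and the ob/ob array the lowest for 24 of 39, against 28.5% and 25.7% of all genes. That order holds for this scaling: with scaling by spike-in RNA, ob/ob TBP-2-/- was the highest and ob/ob the lowest for 0 of 39, since 0 members were then above 0 for ob/ob TBP-2-/- minus ob/ob and 39 for ob/ob minus WT.

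**Figure D1:**
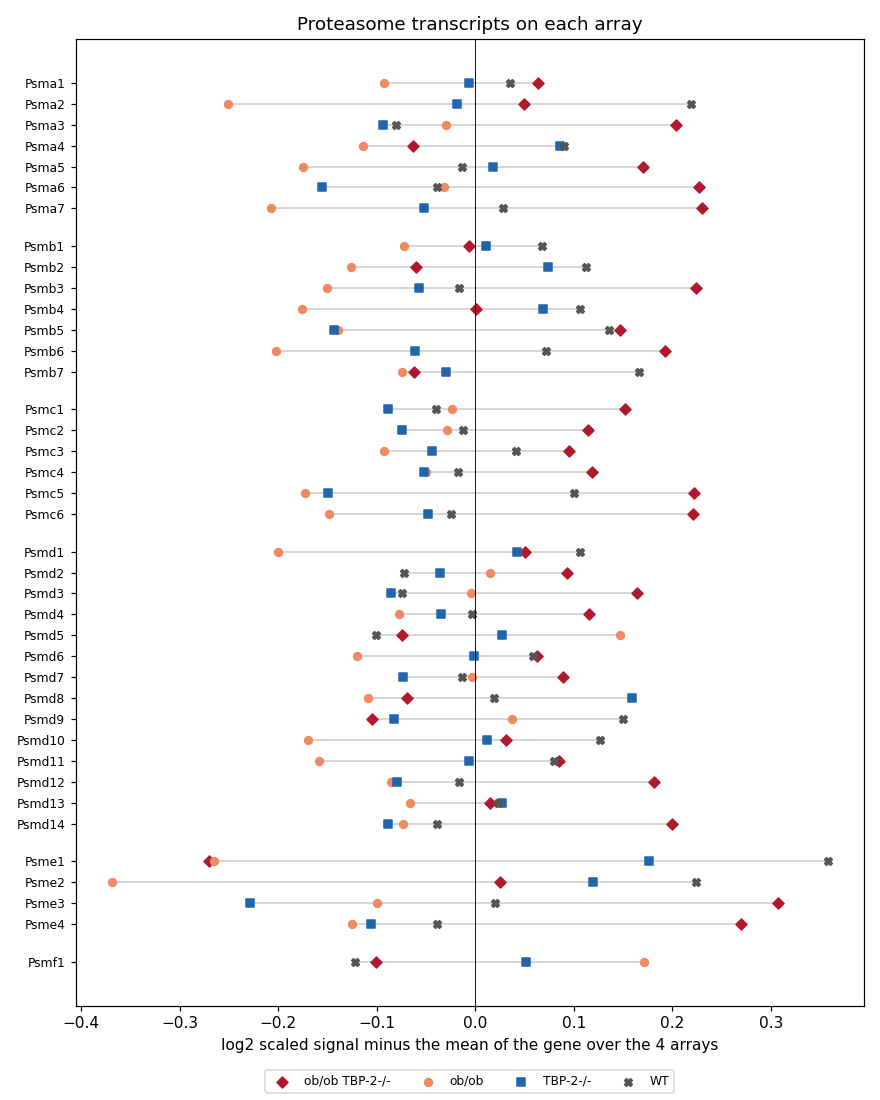
Level of each of the 39 proteasome transcripts on the 4 arrays, as log2 scaled signal minus the gene's own mean over the arrays, with a grey line from its lowest to its highest array and 1 point per array. Points of the ob/ob TBP-2-/- array lie at the right end for 24 members and those of the ob/ob array at the left end for 24, an order that is lost with scaling by spike-in RNA, and Psme1 and Psme2 span the widest ranges.

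Loss of TBP-2 on the lean background was accompanied by small differences in every subunit class. No member was 1.5-fold different between TBP-2-/- and WT, against 8.88% of all genes. None was 25% higher or 20% lower either, against 27.5% of all genes. The core particle had a median log2 difference of −0.05 (relative 0.02), and the regulatory particle with the activators and the inhibitor −0.06 (relative 0.01). Of the 39, 6 were above 0, against 39.8% of all genes, and 25 were above the median of all genes, which has 50% of genes above it by definition. None of the 39 differed by more than 2 SE. The direction of the count above 0 depends on the scaling: 31 members were above 0 with quantile normalization and 36 with scaling by spike-in RNA.

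The lowest members in that comparison came from 4 classes. Psmb5, the chymotrypsin-like subunit, had scaled signals of 33.7 in TBP-2-/- muscle and 40.9 in WT muscle (log2 difference −0.28). Psmc5, a base ATPase, had 19.2 in TBP-2-/- and 22.9 in WT (−0.25), and Psme3, a nuclear activator of the core, 107 in TBP-2-/- and 127 in WT (−0.25). Psma2, of the alpha ring, had 70.3 in TBP-2-/- and 82.9 in WT (−0.24). The highest were Psmf1, an inhibitor that binds the core (0.795 in TBP-2-/-, 0.705 in WT, 0.17), the lid subunit Psmd8 (17.0 in TBP-2-/-, 15.4 in WT, 0.14), Psmd5, a chaperone of base assembly (3.48 in TBP-2-/-, 3.18 in WT, 0.13), and the scaffold subunit Psmd2 (42.7 in TBP-2-/-, 41.6 in WT, 0.04). Each of these 8 differences was under 2 SE.

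On the ob/ob background the same loss went with small differences that lay further above the median of all genes. In ob/ob TBP-2-/- muscle 35 of 39 members were above their level in ob/ob muscle, against 54% of all genes, and 34 of 39 were above the median of all genes, whereas with scaling by spike-in RNA 0 of 39 were above 0 and again 34 above the median of all genes. The core particle median was 0.25 (relative 0.22), with 14 of 14 genes above 0, and that of the regulatory particle, activators and inhibitor was 0.18 (relative 0.16), with 21 of 25 above 0. No member reached 1.5-fold, against 9.58% of all genes. At least 25% higher were 9 members, against 16.9% of all genes, and 0 were 20% or more lower, against 12% of all genes.

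By class, the alpha ring had a median of 0.26 (7 of 7 genes above 0) and the beta ring 0.18 (7 of 7). The base ATPases had 0.18 (6 of 6) and the non-ATPase class 0.18 (12 of 14). Those of the non-ATPase class below 0 were the assembly chaperones Psmd5 and Psmd9. The activators had a median of 0.39 (3 of 4). The 81 measured genes named as cytosolic ribosomal proteins, taken as a comparison set from another large complex, had a relative median of 0.28, with 78 above 0. The fibre markers were above 0 for 7 of 8. The members were thus not alone in being higher, and no test separates them from these sets.

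Psma7, an alpha ring subunit, was the highest, with scaled signals of 63.3 in ob/ob TBP-2-/- and 46.7 in ob/ob muscle, and 52.0 in TBP-2-/- and 55.0 in WT. Its log2 difference of 0.44 between ob/ob TBP-2-/- and ob/ob was the only one of the 39 beyond 2 SE. Of all genes, 10.7% were at least as high in that comparison. Psme3 followed with 155 in ob/ob TBP-2-/- and 117 in ob/ob (0.41). The ob/ob TBP-2-/- array was the highest of the 4 for both genes. Psme4, a large activator made of a single chain, had 178 in ob/ob TBP-2-/-, 135 in ob/ob, 137 in TBP-2-/- and 144 in WT (0.39), and its other measured probes gave 0.32 and 0.04. Psmc5 had 24.9 in ob/ob TBP-2-/- and 18.9 in ob/ob (0.40), with 0.35 at its second probe.

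The catalytic subunits spanned the range of the beta ring. Psmb6, the caspase-like subunit, had 84.9 in ob/ob TBP-2-/-, 64.6 in ob/ob, 71.2 in TBP-2-/- and 78.1 in WT, a log2 difference of 0.39 between the first pair. Psmb5 had 41.2 in ob/ob TBP-2-/- and 33.8 in ob/ob (0.29). Psmb7, the trypsin-like subunit, had 26.4, 26.2, 27.0 and 30.9 on the ob/ob TBP-2-/-, ob/ob, TBP-2-/- and WT arrays (0.01). These differences lie within 2 SE of each other.

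The 4 members below 0 in that comparison were Psmf1, Psmd5, Psmd9 and Psme1. Psmf1 had scaled signals of 0.716 in ob/ob TBP-2-/- and 0.864 in ob/ob (log2 difference −0.27), and its other probes gave −0.17 and −0.05. Psmd5 had 3.24 in ob/ob TBP-2-/- and 3.78 in ob/ob (−0.22). Both genes were highest on the ob/ob array and ran opposite to most members. Psmd9, also a chaperone of base assembly, had 1.33, 1.47, 1.35 and 1.59 on the ob/ob TBP-2-/-, ob/ob, TBP-2-/- and WT arrays (−0.14), and its second probe gave 0.04. Psme1 was level on the ob/ob pair (11.6 in ob/ob TBP-2-/- and 11.7 in ob/ob, −0.01).

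**Figure D2:**
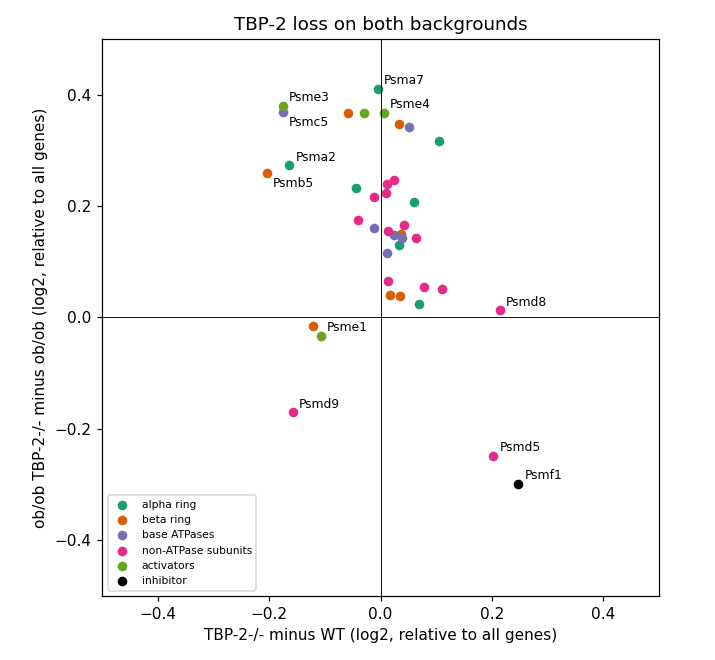
Log2 difference without TBP-2, relative to the median of all genes, on the lean background (horizontal axis, TBP-2-/- minus WT) and on the ob/ob background (vertical axis, ob/ob TBP-2-/- minus ob/ob), with 1 point per proteasome gene coloured by class. Most points lie above 0 on the vertical axis and near 0 on the horizontal axis, and Psmf1 and Psmd5 lie at the lower right.

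The difference between those TBP-2 effects (ob/ob background minus lean) was above 0 for 36 of 39 members, with a median of 0.24. Over all genes its median was 0.08, and 6170 of 14931 genes were below 0. Psme3 had the highest value (0.66) and Psmf1 the lowest (−0.45). These values depend on the scaling: with spike-in RNA the median of all genes moved by −0.55 for the effect on the ob/ob background and by 0.24 for that on the lean one. Across the members the TBP-2 effects on the 2 backgrounds had a Pearson correlation of −0.42 (39 genes), and across all genes 0.31. The effects share no array, but the genes share the arrays' scaling, so these correlations are descriptions. The difference between the effects could not be tested with 1 array per genotype.

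In ob/ob muscle against WT 28 of 39 members were below the median of all genes, a count that depends on the processing. A pair of activator genes was the lowest. Psme1 and Psme2, which together form the activator that interferon induces and that works with the immunoproteasome, were the only members 1.5-fold different, and both were lower in ob/ob (2 of 39, against 6.74% of all genes lower and 13% different either way). With quantile normalization or a percentile over detected probes 0 members passed that fold, and with normexp background correction or the median of a gene's probes 1 did, Psme1. With scaling by spike-in RNA Psme1 and Psme2 were at 0.046 and 0.076 (log2), 13 other members were 1.5-fold higher, and the relative differences stayed at −0.58 and −0.55. At least 20% lower were 3 members, against 20% of all genes, and 0 were 25% or more higher, against 15.4% of all genes. The core particle median was −0.22 (relative −0.17), with 2 of 14 genes above 0. That of the others was −0.09 (relative −0.04), with 6 of 25 above 0. Over the alternatives these relative medians ran from −0.18 to −0.004 and from −0.09 to 0.13. Over all genes 44.4% were above 0. Of the 39 members, 8 were above 0 and 11 above the median of all genes. With quantile normalization 22 were above 0 and 22 above that median, and with scaling by spike-in RNA 39 and 11. With no filter on dim probes 24 of 40 were above that median. The ribosomal protein genes had a relative median of −0.35, and the fibre markers were below 0 for 8 of 8.

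Psme1 had scaled signals of 11.6 in ob/ob TBP-2-/-, 11.7 in ob/ob, 15.9 in TBP-2-/- and 18 in WT. Both ob/ob genotypes were below both lean genotypes, an order shown at this scaling by 9 of 39 members, against 21.8% of all genes. The log2 difference was −0.62 for ob/ob minus WT and −0.45 for ob/ob TBP-2-/- minus TBP-2-/-. Its probe lies on chromosome 14 at 54535428 to 54535487 (mm8, the array annotation's build), and no other probe of the gene was used. In the additive fit over the 4 arrays (limma), the ob/ob difference of Psme1 was −0.53 ± 0.17 (SE), with an unadjusted p of 0.01589 and a Benjamini-Hochberg adjusted p of 0.2116, so it was not called.

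Psme2 had scaled signals of 25.6 in ob/ob TBP-2-/-, 19.5 in ob/ob, 27.4 in TBP-2-/- and 29.4 in WT. Again both ob/ob genotypes were below both lean ones at this scaling, by less where TBP-2 was also lacking. The log2 difference was −0.59 for ob/ob minus WT and −0.10 for ob/ob TBP-2-/- minus TBP-2-/-. Its second probe gave −0.52 and −0.10. The brighter probe lies on chromosome 14 at 54541569 to 54541628 (mm8), close to that of Psme1.

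Psme3, of the same gene family, did not share this order. It had 155 in ob/ob TBP-2-/-, 117 in ob/ob, 107 in TBP-2-/- and 127 in WT, so its ob/ob difference was −0.12 with TBP-2 and 0.54 without it. A ratio of 2 genes on the same array is not changed by scaling each array with 1 factor, but quantile normalization can change it. The log2 ratio of Psme1 to Psme3 was lower in ob/ob than in WT by 0.50 on the log2 scale (difference −0.50 ± 0.29, SE), and in ob/ob TBP-2-/- than in TBP-2-/- the difference was −0.98. For Psme2 to Psme3 these differences were −0.47 and −0.63.

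The immunoproteasome subunits that interferon puts in place of the catalytic beta subunits were low on the same arrays. Psmb8, which takes the place of Psmb5, had scaled signals of 1.56 in ob/ob TBP-2-/-, 1.19 in ob/ob, 2.26 in TBP-2-/- and 2.24 in WT (−0.92 for ob/ob minus WT). Psmb9, which takes the place of Psmb6, had 0.761, 0.658, 1.27 and 1.27 in the same order (−0.95). Psmb10, which takes the place of Psmb7, differed less, with 10.1, 9.5, 11 and 12.7 (−0.42). For all 3 genes both ob/ob genotypes were below both lean genotypes at this scaling, as for Psme1 and Psme2. Scaling by spike-in RNA moved the median of all genes by 0.67 for ob/ob minus WT, more than the −0.42 of Psmb10. The order was then lost for Psme1, Psme2 and Psmb10.

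Set against the subunit that each replaces, Psmb8 over Psmb5 differed by −0.64 ± 0.29 (log2, SE) between ob/ob and WT and by −0.83 between ob/ob TBP-2-/- and TBP-2-/-. Psmb9 over Psmb6 differed by −0.68 and −0.99, and Psmb10 over Psmb7 by −0.18 and −0.09. In the list of 12 interferon and antigen presentation genes, 0 of 12 were above 0 for ob/ob minus WT (relative median −0.53) and 1 of 12 for ob/ob TBP-2-/- minus TBP-2-/- (relative median −0.74). The list's summed scaled signals were 46.0, 39.1, 58.1 and 52.6 on the ob/ob TBP-2-/-, ob/ob, TBP-2-/- and WT arrays. Macrophage markers, which mark cells that express many such genes, are given above, and their part in the result was not tested.

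**Figure D3:**
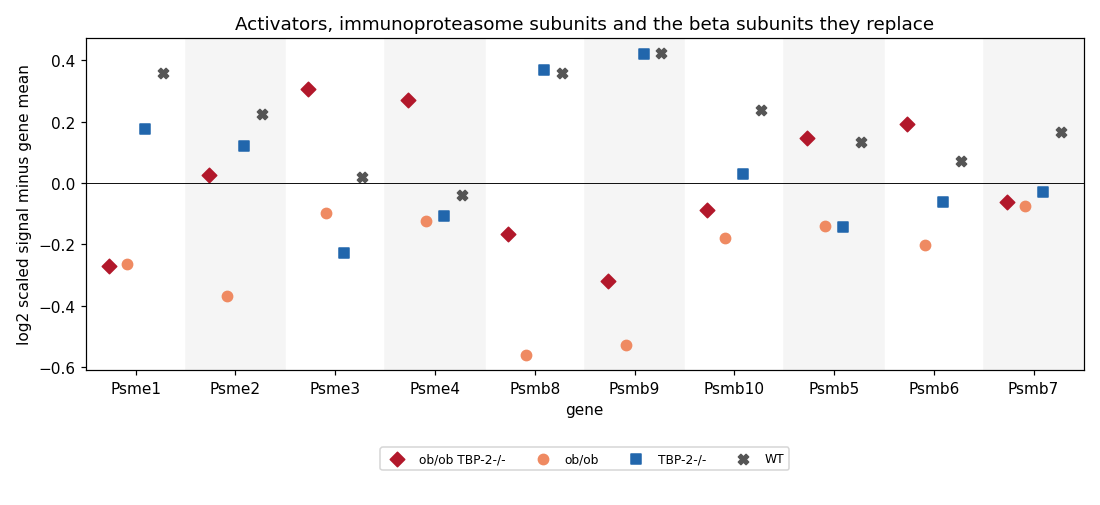
Log2 scaled signal minus the gene's own mean over the 4 arrays for the activators Psme1 to Psme4, the immunoproteasome subunits Psmb8, Psmb9 and Psmb10, and the catalytic subunits they replace (Psmb5, Psmb6 and Psmb7), with 1 point per array. Both ob/ob genotypes lie below both lean genotypes for Psme1, Psme2, Psmb8, Psmb9, Psmb10 and Psmb7, and not for Psme3, Psme4, Psmb5 or Psmb6.

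Outside the activators, Psma2 was the lowest member in ob/ob, with 73.7 in ob/ob TBP-2-/-, 59.9 in ob/ob, 70.3 in TBP-2-/- and 82.9 in WT (−0.47 for ob/ob minus WT, beyond 2 SE). Of all genes, 10.9% were at least as low in that comparison. Psmd1, a scaffold subunit of the base, had 15.1 in ob/ob and 18.6 in WT (−0.31). The highest were Psmf1 (0.864 in ob/ob, 0.705 in WT, 0.29), Psmd5 (3.78 in ob/ob, 3.18 in WT, 0.25), Psmd2 (44.2 in ob/ob, 41.6 in WT, 0.09) and Psmd3, a lid subunit (123 in ob/ob, 117 in WT, 0.07). All 7 beta ring genes were below 0, between −0.28 (Psmb4) and −0.13 (Psmb3). The 6 base ATPases had a median of −0.08.

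Without TBP-2 the ob/ob genotype was accompanied by small differences in both directions. Of 39 members, 27 were higher in ob/ob TBP-2-/- than in TBP-2-/-, against 54.6% of all genes, and 0 reached 1.5-fold, against 10.5%. At least 25% higher were 4, against 16.2% of all genes, and 1 (Psme1) was 20% or more lower, against 13.8%. Of the 39, 25 were above the median of all genes, but with no filter on dim probes 17 of 40 were. The core particle median was 0.11 (relative 0.08) and that of the others 0.14 (relative 0.11), and over the alternatives these relative medians ran from −0.08 to 0.10 and from −0.01 to 0.11, so that neither sign is settled. The base ATPases were above 0 for 6 of 6 genes (median 0.22) and the alpha ring for 6 of 7 (0.15), while the beta ring was above 0 for 3 of 7 (−0.02).

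Psme3 was the highest member there (155 in ob/ob TBP-2-/- and 107 in TBP-2-/-, 0.54), and it and Psme1 were the only ones beyond 2 SE. Of all genes, 6.78% were at least as high as Psme3 and 8.22% at least as low as Psme1. Psma6, of the alpha ring, had 44.1 in ob/ob TBP-2-/-, 36.8 in ob/ob, 33.8 in TBP-2-/- and 36.7 in WT (0.38), so the ob/ob TBP-2-/- array stood above the other 3. Psme4 followed (178 in ob/ob TBP-2-/-, 137 in TBP-2-/-, 0.38), then Psmc5 (24.9 in ob/ob TBP-2-/-, 19.2 in TBP-2-/-, 0.37). Next to Psme1, the lowest were Psmd8 (14.5 in ob/ob TBP-2-/- and 17.0 in TBP-2-/-, −0.23), Psmf1 (0.716 in ob/ob TBP-2-/-, 0.795 in TBP-2-/-, −0.15) and Psma4 (11 in ob/ob TBP-2-/-, 12.2 in TBP-2-/-, −0.15).

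**Figure D4:**
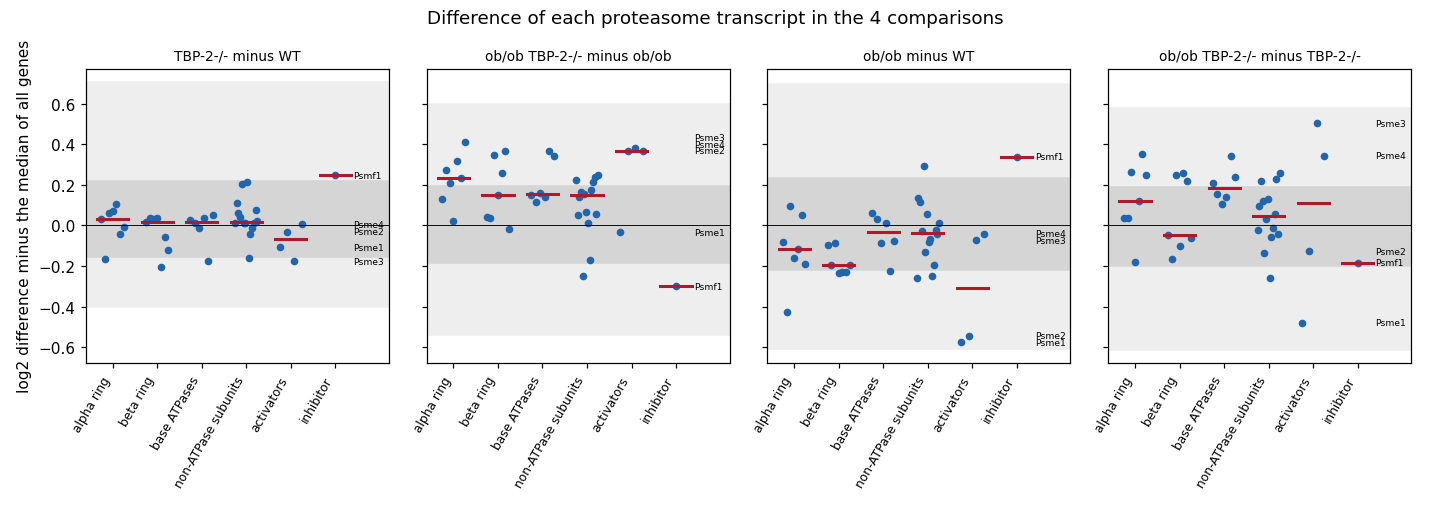
Log2 difference of each proteasome gene minus the median of all genes, by subunit class, in the 4 comparisons, with 1 point per gene and a red bar at the class median. The dark and light grey bands hold the middle 50% and 90% of all genes. Most members lie inside or close to the dark band, and Psme1 and Psme2 lie lowest in ob/ob minus WT.

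The additive fit of the TBP-2 and ob/ob genotypes called no member for either. For TBP-2 loss, 0 of 39 members passed an adjusted p of 0.05 in limma, against 0.241% of all genes, and 0 of 39 an unadjusted p of 0.05, against 10.5%. For ob/ob, 0 of 39 passed, against 0.851% of all genes, and 1 of 39 (Psme1) passed the unadjusted threshold, against 14.6%. The fit has 1 residual degree of freedom, so its error is the departure from additivity moderated over all genes. The members described above as differing in their TBP-2 effects are those for which this error is large.

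Genes that work with the proteasome were read from a list of 15 partners and regulators, of which 14 were measured. In ob/ob TBP-2-/- minus ob/ob 13 of 14 were above 0. Ddi2, a protease that activates the proteasome's transcription factor Nfe2l1, was the only 1 past 1.5-fold, with 24.8 in ob/ob TBP-2-/-, 15.6 in ob/ob, 18.9 in TBP-2-/- and 18.2 in WT (0.66 for ob/ob TBP-2-/- minus ob/ob). Nfe2l1 itself had 111, 110, 108 and 104 in the same order, a nearly flat level. Sem1, a small lid subunit that bears no Psmd name, had 149 in ob/ob TBP-2-/-, 123 in ob/ob, 146 in TBP-2-/- and 181 in WT (−0.56 for ob/ob minus WT). Pomp, which matures the core particle, had 74.1, 68.1, 79.4 and 92.4 in that order (−0.44). The list as a whole went both ways for ob/ob minus WT, with 6 of 14 above 0 and a relative median of −0.03.

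Of 16 ubiquitin and delivery genes 15 were measured. For ob/ob minus WT 6 of 15 were above 0, with a relative median of −0.03. Rps27a, which encodes ubiquitin joined to a ribosomal protein and is also in the ribosomal set, had scaled signals of 144 in ob/ob TBP-2-/-, 106 in ob/ob, 133 in TBP-2-/- and 160 in WT (−0.59 for ob/ob minus WT). The ob/ob array was the lowest of the 4.

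Among 14 muscle ubiquitin ligases and their regulators, 12 were measured. Fbxo31, a substrate receptor of a ubiquitin ligase, had 99.97 in ob/ob TBP-2-/-, 171 in ob/ob, 68.2 in TBP-2-/- and 110 in WT. It was lower without TBP-2 on both backgrounds (−0.69 lean and −0.77 ob/ob) and higher in ob/ob with TBP-2 (0.63). Fbxo32, whose protein is a main ligase of muscle wasting, had 28.7, 42.2, 24.2 and 29.7 in that order (−0.56 for ob/ob TBP-2-/- minus ob/ob), short of 1.5-fold. Trim63 had 48.5, 51.9, 56.0 and 66. Fbxo21, a further F-box gene, had 4.46 in ob/ob TBP-2-/- and 6.71 in TBP-2-/- (−0.59), and Mstn, which encodes myostatin, a brake on muscle growth, had 7.72 in ob/ob TBP-2-/- and 4.42 in TBP-2-/- (0.81). For ob/ob TBP-2-/- minus ob/ob the list did not follow the subunits: 9 of 12 were below 0, against 4 of 39 members and 6868 of 14931 genes. For TBP-2-/- minus WT both lay mostly below 0, with 9 of 12 and 33 of 39, against 8989 of 14931 genes. No test compares the lists.

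The brightest member probes by scaled signal were those of Psme4, Psme3 and Psmd3, and the dimmest those of Psmf1, Psmd9 and Psmd10. Psmd3 had 138 in ob/ob TBP-2-/-, 123 in ob/ob, 116 in TBP-2-/- and 117 in WT. Psmd10, a chaperone of base assembly, had 1.40, 1.22, 1.38 and 1.496 in the same order. The assembly chaperones known by current symbol were highest on the WT array. Psmg1 had 1.42 in ob/ob TBP-2-/-, 1.48 in ob/ob, 1.65 in TBP-2-/- and 2.05 in WT (−0.47 for ob/ob minus WT). Psmg2 had 5.94, 5.68, 7.06 and 7.30 (−0.36) and Psmg3 3.85, 3.94, 3.92 and 4.40 (−0.16).

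Of the genes outside the members, Psma8 had signals of 6.13, 6.27, 10.5 and 15.4 on the ob/ob TBP-2-/-, ob/ob, TBP-2-/- and WT arrays, before scaling. The thymus subunit Psmb11, found by its current symbol, was not well above background on any of them. Psmc3ip was well above background on all 4, with 175, 176, 217 and 262 in the same order. For 15 members 19 further probes were measured, and 17, 17, 14 and 14 of 19 had the sign of the brightest probe in the 4 comparisons in the order used above, with a median departure of 0.06 to 0.11 (log2).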

How the data were processed

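Skeletal muscle RNA was labelled with Cy3 and hybridised to 1-colour Agilent 4x44K mouse arrays, per the labels' protocols, and the 4 arrays lay on 1 slide. Spot intensity values were produced by the authors with Agilent Feature Extraction 9.5.3.1, per the file headers. The deposited processed intensity is background-subtracted within each array and not scaled between arrays. The authors also deposited log2 values of the same arrays, which matched the scanner differences with a slope of 1 (r = 0.999979) and are centred on each probe's median. Their column medians were 0.0091, −0.0116, −0.0621 and 0.0912 for ob/ob TBP-2-/-, ob/ob, TBP-2-/- and WT. How low values were treated there is not stated in the labels.

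Levels were the log2 processed signal less the array's 75th percentile over 41132 probes (261, 309, 306 and 280 in the same order). Outlier spots were left out (110, 59, 62 and 78) and replicate spots averaged. Probes well above background numbered 23680, 23431, 24221 and 22675, and probes printed 10 times varied between spots by a median SD of 0.0689, 0.0635, 0.0656 and 0.0596 (log2). Each gene was represented by its brightest probe well above background on all 4 arrays. Genes were named through RefSeq accessions (24337 probes), symbols (6299) or synonyms (2425), otherwise by the file (8071). Probe positions are on mm8.

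The only test was an additive fit of both genotypes with limma 3.58.1 in R 4.3.3 over 14931 genes, with 1 residual and 5.536 prior degrees of freedom and a Benjamini-Hochberg threshold of 0.05. It was tested on simulated data. Pairs of arrays were described by counts past 1.5-fold and a lower fold. Values are given for the 4 highest and 4 lowest members of each comparison, the 3 brightest and dimmest, the activators, the inhibitor and chaperones, and listed genes past 1.5-fold, with others named for their role; 1 listed gene is not reported here. Members and lists were chosen with earlier results of these data known. Alternatives were normexp background, quantile and spike-in scaling, the percentile over detected probes, no filter on dim probes, the median of a gene's probes, the deposited table and other fold thresholds. Membership by current symbol was added after seeing the data. The number of arrays limits the precision.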

Additional observations from a re-analysis of the deposited data

Results flagged for a closer look

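For 6 members, read at the brightest probe, the effect of a genotype ran one way on one background and the other way on the other. Each did so by more than the error-model SE, with arrays scaled at the 75th percentile. The effect of TBP-2 loss on the ob/ob background minus that on the lean background was 0.66 for Psme3 (0.41 and −0.25), 0.65 for Psmc5 (0.40 and −0.25), 0.56 for Psmb5 (0.29 and −0.28) and 0.54 for Psma2 (0.30 and −0.24). The ob/ob effect without TBP-2 minus that with TBP-2 was 0.65 for Psmc5 (0.37 and −0.27), 0.56 for Psmb5 (0.29 and −0.27), 0.53 for Psmb6 (0.25 and −0.27) and 0.52 for Psma7 (0.28 and −0.23). For a given gene both readings are the same combination of the 4 arrays. These differences were not tested, since each genotype has 1 array, and the opposite signs rest on the scaling. Relative to all genes the lean TBP-2 effects of Psme3, Psmc5 and Psma2 were −0.18, −0.18 and −0.16, under 1 SE. The second Psmc5 probe gave −0.18 for TBP-2 loss on the lean background and 0.35 on the ob/ob background. Its ob/ob effect was −0.03 with TBP-2 and 0.51 without it. Its negative values were thus under 1 SE. With scaling by spike-in RNA the TBP-2 effects on the ob/ob and lean backgrounds were −0.14 and −0.0053 for Psme3, −0.16 and −0.0057 for Psmc5, −0.27 and −0.034 for Psmb5, and −0.25 and 0.0061 for Psma2.

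A pair of dim probes, which no comparison used, gave a signal on a single array. The Psmd14 probe A_51_P371965 had a signal of 29.5 on the ob/ob TBP-2-/- array, against 2.24, 1.95 and 2.35 on the ob/ob, TBP-2-/- and WT arrays, where it was not well above background. The other Psmd14 probes showed no such difference, with scaled signals of 29.3, 24.2, 24.0 and 24.8 at the brightest. The Psme4 probe A_51_P478978 was well above background on the TBP-2-/- array alone, with a signal of 12.1, against 11.6 on the ob/ob TBP-2-/- array.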

How the results depend on the processing

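All 8 class medians relative to all genes moved by less than the error-model SE under every alternative run. That SE is the error of a single gene and not of a median, so it is a loose limit. The core median for ob/ob minus WT ran between −0.18 and −0.004, so it kept its sign but nearly vanished. For ob/ob TBP-2-/- minus TBP-2-/- the core median ran between −0.08 and 0.10. The other classes' median ran between −0.01 and 0.11 for that comparison and between −0.09 and 0.13 for ob/ob minus WT. The last 3 signs are thus not settled. Spike-in scaling moved the median of all genes by −0.55 for ob/ob TBP-2-/- minus ob/ob and by 0.67 for ob/ob minus WT. With it 3 members were 1.5-fold lower in the first of these and 13 were higher in the second, and Psme1 and Psme2 turned to 0.046 and 0.076 for ob/ob minus WT, with relative differences still −0.58 and −0.55. Of the 2 members past 1.5-fold in ob/ob minus WT, 1 (Psme1) passed it with normexp and 1 (Psme1) with the median of a gene's probes, and 0 passed with quantile normalization, the percentile over detected probes or a 2-fold threshold. With no filter on dim probes 1 member (Psma8, dim on 3 arrays) passed 1.5-fold for TBP-2-/- minus WT. At the lower fold threshold (25% higher or 20% lower) the counts were 9 for ob/ob TBP-2-/- minus ob/ob and 5 for ob/ob TBP-2-/- minus TBP-2-/-. In the additive fit for ob/ob, normexp called 1 member, Psme1 (adjusted p = 0.01226, limma, among 1040 genes called), and the other settings gave it an adjusted p of 0.1488 to 0.9711. The cause of these changes was not tested.

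No paired analysis was possible because each genotype has 1 array, and leaving out an array leaves the additive fit no residual degree of freedom, so none was left out.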
